A study of Mus musculus with 7 samples.

Results

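The genes described here are the 39 that carry carbon from acetyl-CoA into fatty acids and on into phospholipids, chosen by gene symbol. All 39 were found among the 21121 genes listed in each library, and all 39 had enough reads to be tested. They comprise 6 genes of the path from acetyl-CoA to palmitate, 5 desaturases, 4 elongases, 5 genes of fatty acid activation and carriage, 4 of phosphatidate and diacylglycerol synthesis, 3 of triglyceride storage, 5 of phosphatidylcholine synthesis, 4 of CDP-diacylglycerol and phosphatidylserine synthesis, 2 of phospholipid remodelling, and the regulator Srebf1. The samples were lung epithelial cells of C57BL/6 mice, with no genetic change or treatment named in the labels. Living cells were sorted for Epcam, an adhesion protein of epithelia, after cells carrying CD31, CD45, CD146 or Ter119 had been depleted, and their polyadenylated RNA was read as 3′ SAGE tags. There was 1 library at embryonic day 13.5 (E13.5), 1 at E15.5, 2 at E18.5, 1 at postnatal day 14 (P14) and 2 at P56, which makes 7 libraries over 5 stages. The labels do not say how many animals each library pooled or whether replicates came from separate animals, so p-values measure only the spread between these libraries.

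Cells make palmitate by turning citrate into acetyl-CoA, carboxylating it to malonyl-CoA and extending the chain on fatty acid synthase, with NADPH as the reductant. Desaturases and elongases then shape the chain, acyl-CoA synthetases activate it, and acyltransferases attach it to glycerol phosphate to give phosphatidate, from which phosphatidylcholine, phosphatidylglycerol and triglyceride are made. In the lung, alveolar type 2 cells draw on these steps for surfactant, whose main lipid is dipalmitoyl phosphatidylcholine, a species with saturated chains that is built in part by remodelling, and they start to do so late in gestation.

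Depth was 2559927 to 3895740 reads per library, and 1 read was worth 0.236 to 0.385 of the scaled units in which values are given below. Markers of the sorted type were present throughout, with Epcam at 55.8 to 213 units, and Ptprc, which encodes CD45, and Pecam1, which encodes CD31, had 0 to 4 reads in each library. Epithelial subtypes changed in weight along the series. The 7 markers of alveolar type 2 cells together took 0.00945% of the E13.5 reads and 0.224% of the E15.5 reads, 0.938% and 0.851% in the E18.5 pair, 3.27% at P14, then 4.47% and 4.93% in the P56 pair. All 7 had reads from E15.5 on, and Slc34a2 and Lyz2 were at 0 at E13.5. The 6 markers of alveolar type 1 cells took 0.00388% and 0.0548% at the early stages, 0.56% and 0.604% in the E18.5 pair, 0.549% at P14, then 0.296% and 0.332% in the P56 pair. The 9 mesenchymal and lipofibroblast markers held 0.283% of the E13.5 reads, 0.151% of the E15.5 reads and between 0.0187% and 0.0302% later. Vim made up most of the early share. Not every marker fell with the sum: from E13.5 to E15.5, Col1a1 rose 7.23-fold, Col1a2 5.92-fold, Col3a1 9.89-fold and Dcn 2.3-fold. Of the 7 tested, Vim and Dcn were called lower and the lipofibroblast markers Lpl and Tcf21 higher at E18.5 than in the early stages, and 1 was called higher (Dcn) and 5 lower at P56 than at E18.5. Fabp4, another lipofibroblast marker, had 0 or 1 read in each library. The 4 macrophage and immune markers stayed at or below 0.00236%, which was reached at P14. The part of these shifts in the results below was not tested, and in bulk samples fewer cells of a type and less RNA per cell cannot be told apart.

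Most of the 39 genes were low at E13.5 and high in the adult. The stage mean was lowest at E13.5 for 28 of them (71.8%), against 33.4% of all 12964 genes tested, and highest at P56 for 24 (61.5%), against 21.7% of all genes tested. In 14 of the 39 (35.9%) each stage mean exceeded the one before, against 5.33% of all genes tested; these 14 included Acly, Me1, Scd1, Elovl1, Acsl4, Acsl5, Plin2, Chka and Lpcat1. The highest mean was instead at E18.5 for 6 genes, at E13.5 for 4, at P14 for 3 and at E15.5 for 2. All 39 together took 0.401% of the E13.5 reads and 0.56% of the E15.5 reads, 1.34% and 1.4% in the E18.5 pair, 1.24% at P14, then 1.82% and 1.94% in the P56 pair. The P56 libraries were thus the highest and the E13.5 library the lowest, with P14 below both E18.5 libraries. Without the 10 most abundant genes of each library, the members took 0.57% and 0.619% in the E18.5 pair, 0.692% at E15.5 and 1.47% at P14. Scd2 was left out in this way at E18.5 and kept at the other stages. These shares therefore do not cover the same members at each stage and cannot be used to order the stages.

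**Figure D1:**
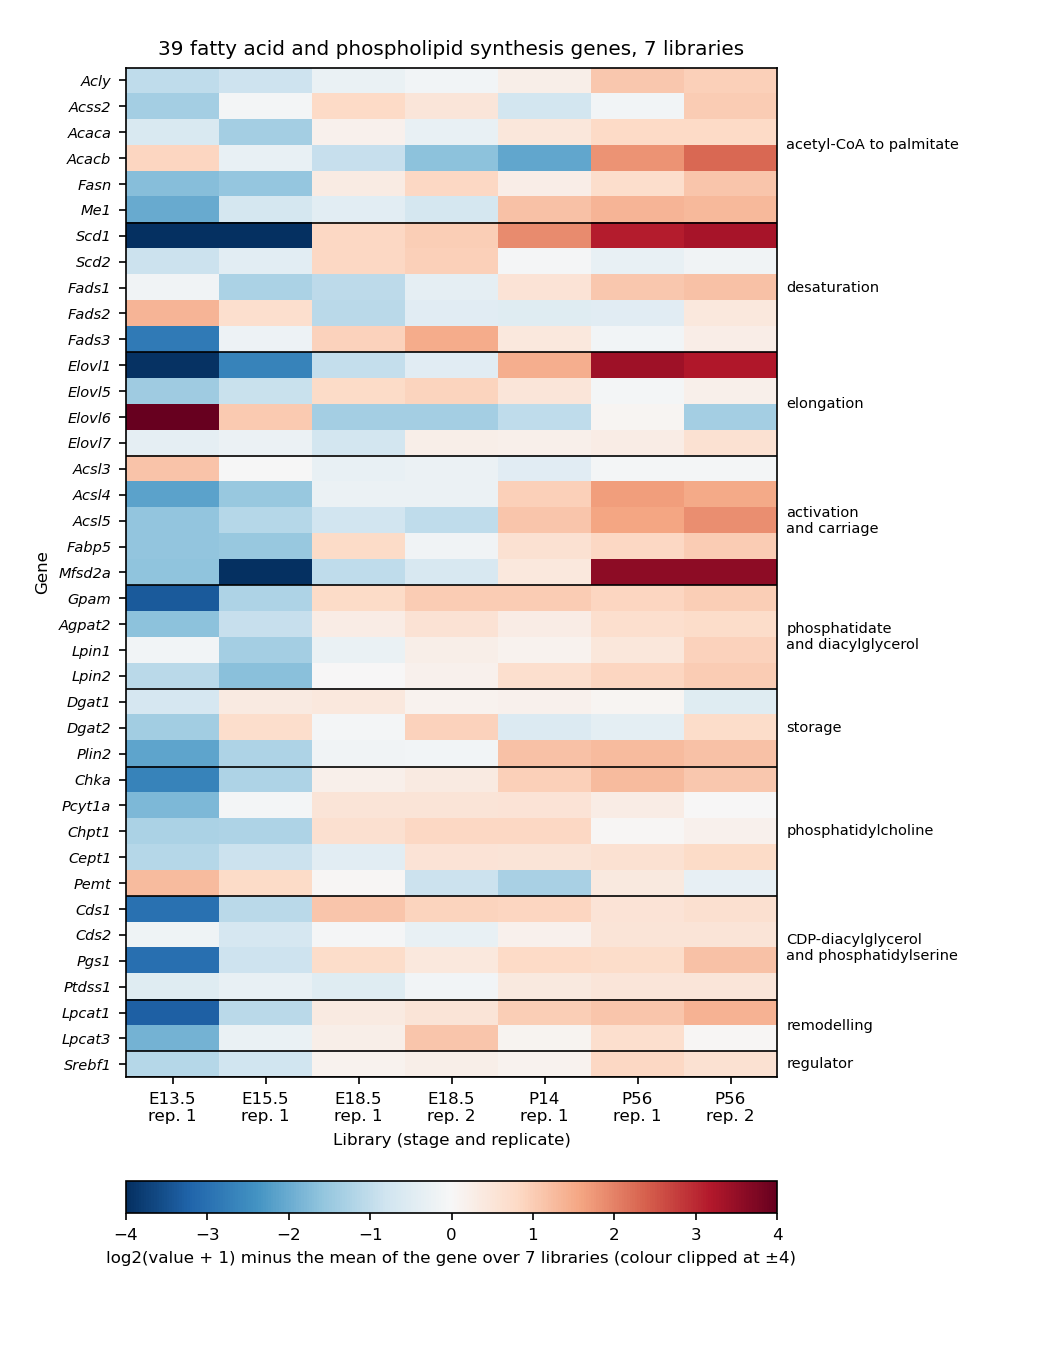
Colour shows log2(value + 1) of each of the 39 genes (rows, grouped by role) in each of the 7 libraries (columns), minus the mean of that gene over the libraries; red is above the mean and blue below, clipped at 4 in either direction. Most rows run from blue at E13.5 to red at P56, while Scd2 and Fads3 are reddest at E18.5 and Elovl6 and Fads2 at E13.5.

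A gene is called higher or lower when its Benjamini-Hochberg adjusted p in the limma fit over all genes was under 0.05. At E18.5, against the mean of E13.5 and E15.5, 24 of the 39 genes (61.5%) were called higher and 3 (7.69%) lower, where 15.8% of all genes tested were called higher and 13.4% lower. The median log2 change of the 39 was 1.47, against 0.03 over all genes tested. At P56 against E18.5, 12 (30.8%) were called higher and 1 lower, where the background was 8.07% higher and 6.15% lower and the medians were 0.69 and 0.06. The other steps rest on the single P14 library. In every comparison the spread came only from the E18.5 and P56 pairs, since E13.5, E15.5 and P14 had 1 library each. Those single libraries were taken to vary as the stages with replicates do. The gap between E13.5 and E15.5 did not enter the error of the E18.5 comparison. From E18.5 to P14, 4 genes (10.3%) were called higher and 0 lower by limma, against 1.87% and 1.24% of all genes tested. At an unadjusted p under 0.05 the counts were 9 higher and 1 lower, and edgeR called 6 higher and 1 lower, where 11.0% and 7.44% of all genes tested had such an unadjusted p and edgeR called 3.16% and 2.13%. From P14 to P56, 3 (7.69%) were called higher and 0 lower, against 0.123% and 0.694%; the unadjusted counts were 5 and 0 (4.99% and 5.35% of all genes tested), and edgeR called 4 and 0 (0.571% and 1.49%). Without robust variance limma called none of the 39 in either comparison, and 3 higher and 3 lower of all genes tested from E18.5 to P14 and 0 from P14 to P56; the unadjusted member counts were then 9 and 1 and 5 and 1. These comparisons share the E18.5, P14 or P56 libraries and are not independent of each other.

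The fits had 2 residual degrees of freedom. Of the 24 genes called higher at E18.5, edgeR and DESeq2 on the recovered reads both called 22, without Acaca and Srebf1, whereas none of the 3 lower calls was made by both. All 13 genes called between P56 and E18.5, all 4 called at P14 against E18.5 and all 3 called at P56 against P14 were called by all 3 tests. Over the whole set, 29 genes were called in at least 1 comparison, 11 were called higher in at least 2, and 10 were called in none: Acss2, Elovl7, Acsl3, Lpin1, Dgat1, Dgat2, Cept1, Pemt, Cds2 and Ptdss1. The matching shares of all genes tested were not counted, so these counts are a tally only. Leaving out any 1 library of E18.5 or P56 left 1 library at that stage. The 1 residual degree of freedom was then too few for limma to call any gene.

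**Figure D2:**
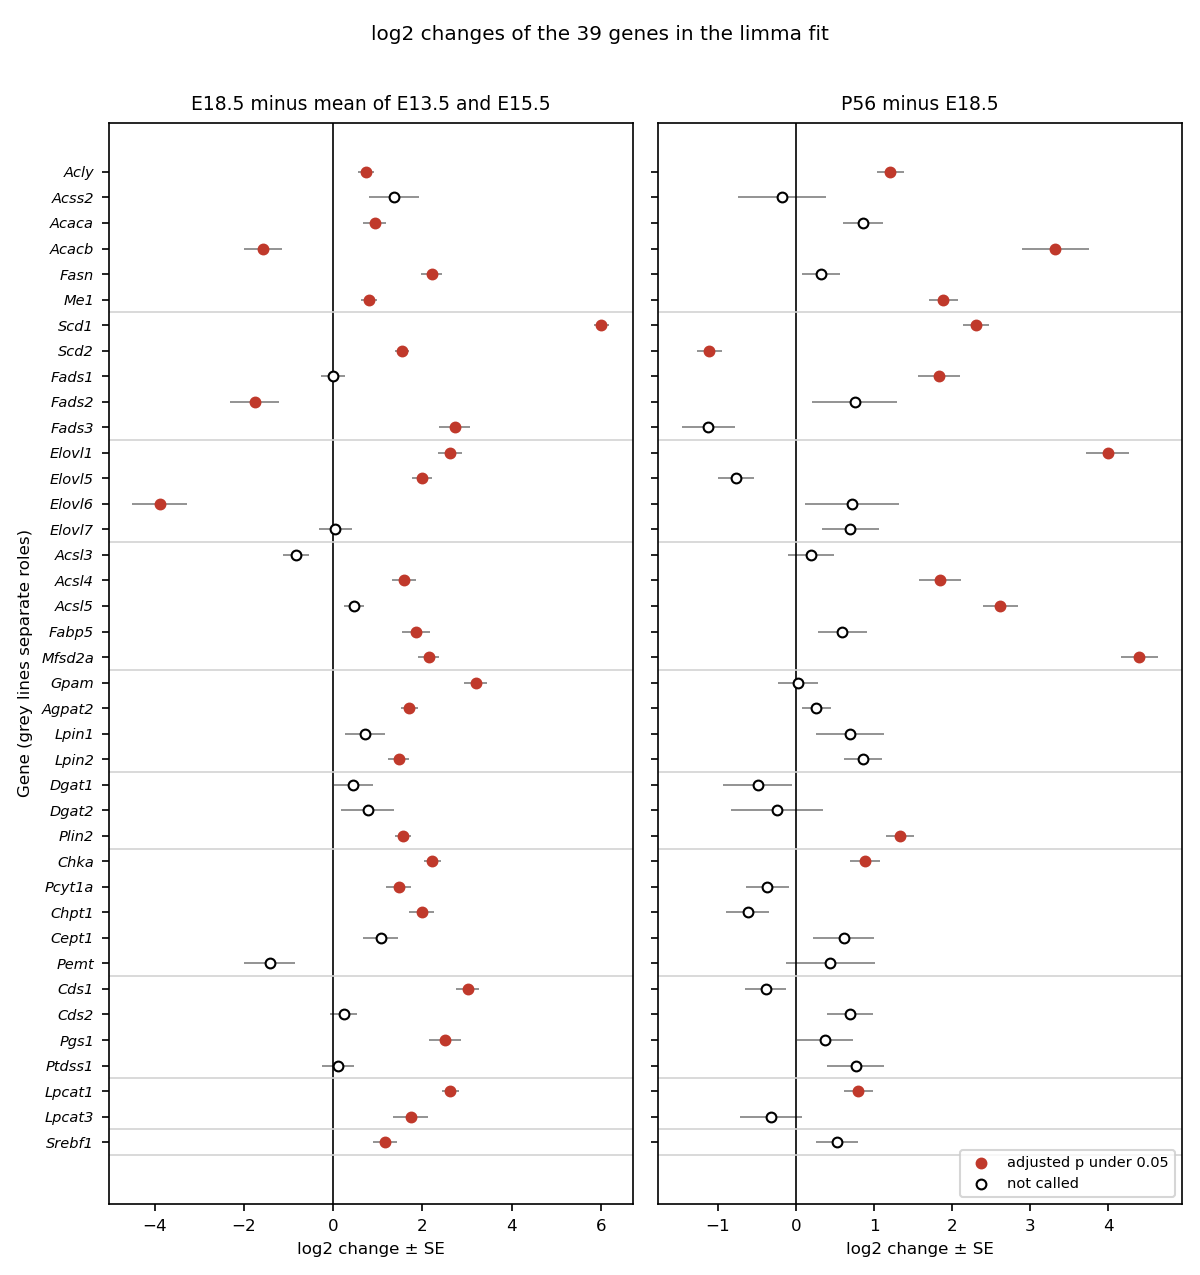
Points are the log2 changes of the 39 genes (rows) with their standard errors in the limma fit, for E18.5 minus the mean of E13.5 and E15.5 on the left and P56 minus E18.5 on the right; filled points have an adjusted p under 0.05. On the left 24 filled points lie above 0 and 3 below; on the right 12 lie above 0, and Scd2 is the filled point below it.

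Promoter sequences are printed for 5 genes whose results are described below, 1 each of palmitate synthesis (Fasn), phosphatidylcholine synthesis (Pcyt1a), remodelling (Lpcat1), elongation (Elovl1) and lipid import (Mfsd2a), each of them called higher at E18.5 than in the early stages. Each runs 5′ to 3′ on the strand of the gene, from 250 bases before to 50 after an annotated start, from RefSeq on GRCm38.p6, the mm10 assembly. Elovl1 and Pcyt1a have entries at other starts too, which are not printed. Capitals mark matches, on either strand, to 4 motifs: TCACNCCAC (a sterol regulatory element core), CACGTG (an E-box), CCAAT (the CCAAT box) and GGGCGG (the GC box).
Fasn, chr11:120824498-120824797, minus strand: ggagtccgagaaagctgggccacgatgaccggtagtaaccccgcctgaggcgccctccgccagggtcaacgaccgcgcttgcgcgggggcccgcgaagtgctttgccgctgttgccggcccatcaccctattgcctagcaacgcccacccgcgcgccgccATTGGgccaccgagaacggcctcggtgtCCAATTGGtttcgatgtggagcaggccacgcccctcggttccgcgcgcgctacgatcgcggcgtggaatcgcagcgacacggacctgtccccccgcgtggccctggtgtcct
Pcyt1a, chr16:32430671-32430970, plus strand: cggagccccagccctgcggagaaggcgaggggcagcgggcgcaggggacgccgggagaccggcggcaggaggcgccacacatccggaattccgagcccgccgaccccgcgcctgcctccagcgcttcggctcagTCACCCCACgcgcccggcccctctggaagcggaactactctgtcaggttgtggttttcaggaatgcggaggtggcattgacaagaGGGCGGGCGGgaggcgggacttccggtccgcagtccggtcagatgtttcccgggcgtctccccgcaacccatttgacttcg
Lpcat1, chr13:73466981-73467280, plus strand: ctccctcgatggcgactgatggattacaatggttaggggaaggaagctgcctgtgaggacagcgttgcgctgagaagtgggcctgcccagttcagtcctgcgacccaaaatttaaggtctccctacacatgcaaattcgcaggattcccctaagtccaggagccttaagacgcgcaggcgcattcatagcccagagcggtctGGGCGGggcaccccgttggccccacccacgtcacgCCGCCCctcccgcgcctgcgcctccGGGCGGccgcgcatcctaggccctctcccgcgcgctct
Elovl1, chr4:118427843-118428142, plus strand: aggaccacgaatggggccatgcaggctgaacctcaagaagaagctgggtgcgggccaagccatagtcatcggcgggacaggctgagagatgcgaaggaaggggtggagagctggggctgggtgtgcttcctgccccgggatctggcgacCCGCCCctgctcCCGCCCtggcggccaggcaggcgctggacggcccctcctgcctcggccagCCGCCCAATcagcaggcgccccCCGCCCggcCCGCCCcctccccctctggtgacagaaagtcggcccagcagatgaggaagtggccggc
Mfsd2a, chr4:122961139-122961438, minus strand: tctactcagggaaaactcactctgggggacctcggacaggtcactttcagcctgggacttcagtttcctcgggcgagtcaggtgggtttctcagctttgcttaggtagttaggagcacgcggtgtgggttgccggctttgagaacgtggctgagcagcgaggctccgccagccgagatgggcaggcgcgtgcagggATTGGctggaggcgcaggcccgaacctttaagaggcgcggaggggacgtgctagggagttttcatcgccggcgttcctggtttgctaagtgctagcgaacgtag

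Of the 39 genes, 32 had an entry among the RefSeq promoters. TCACNCCAC was found in 1 of the 32, Pcyt1a, and in 1.44% of all 27025 genes with a promoter entry. CACGTG was found in 3 (Elovl5, Lpin2 and Plin2) and in 8.09% of all genes, CCAAT in 21 and 41.1%, and GGGCGG in 23 and 38.2%, where a gene with several entries counted if any of them matched; as shares of all 32851 promoters the values were 1.24%, 7.15%, 37.4% and 35.7%. Fasn held 3 CCAAT matches, of which a pair on opposite strands overlap, and Mfsd2a held 1. The printed Elovl1 entry held 5 GC boxes, 1 of them overlapping its CCAAT match. Lpcat1 held 3 and the printed Pcyt1a entry 2, which overlap each other. The other Elovl1 entry held 2 GC boxes and no CCAAT match, and the most downstream Pcyt1a entry held no match to any motif. A match is a stretch of letters and not a measured binding site.

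Of the 6 genes of palmitate synthesis, 4 were called higher at E18.5 than in the early stages and 3 at P56 than at E18.5, with Acly and Me1 in both. Fasn, Acly, Me1 and Acaca made up the first count, where Acacb was called lower, and Acly, Me1 and Acacb the second; Acss2 was not called. Fasn, the synthase that builds palmitate, stood at 82.9 at E13.5 and 92.6 at E15.5, 343 and 484 in the E18.5 pair, 324 at P14, then 439 and 593 in the P56 pair. Both E18.5 libraries lay above both early ones, and the later libraries spread over the E18.5 range and to either side of it. The rise to E18.5 was 4.71-fold (log2 change 2.21, SE 0.244, adjusted p = 0.000843). P56 and E18.5 differed 1.25-fold (adjusted p = 0.436).

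Acly makes cytosolic acetyl-CoA from citrate. Its values were 162 at E13.5 and 184 at E15.5, 273 and 306 in the E18.5 pair, 388 at P14, then 699 and 642 in the P56 pair, in steps without overlap. It was 1.67-fold higher at E18.5 than before (adjusted p = 0.0203; 0.101 without the E13.5 library) and 2.32-fold higher at P56 than at E18.5 (log2 change 1.21 with SE 0.179, adjusted p = 0.00549). Me1, the malic enzyme that supplies NADPH, had a different course, at 66.2 at E13.5 and 165 at E15.5, 202 and 167 in the E18.5 pair, 607 at P14, then 695 and 671 in the P56 pair. The E15.5 library lay close to both E18.5 libraries, and the 3 postnatal libraries lay far above them. The rise from E18.5 to P14 was 3.29-fold (log2 change 1.72, adjusted p = 0.014), and that to P56 was 3.7-fold (SE 0.187, adjusted p = 0.00106). The call of Me1 at E18.5 against the early stages rested on E13.5: the ratio was 1.59 (adjusted p = 0.0176), 2.79 against E13.5 alone, and without the E13.5 library the adjusted p was 0.712.

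The 2 acetyl-CoA carboxylases, which make malonyl-CoA, took different courses. Acaca encodes the cytosolic enzyme of fat synthesis; its values were 24.8, 14.4, 43.5, 31.3, 52.3, 67.7 and 67.7 in the order of stages and replicates. Its 1.91-fold rise at E18.5 (adjusted p = 0.0344) was not called by DESeq2 (adjusted p = 0.125) or without the E15.5 library (0.223). Acacb encodes the form at the outer mitochondrial membrane, whose malonyl-CoA restrains fatty acid oxidation. Acacb is shown for its course, which was noticed after its values were seen: 13.0 at E13.5 and 5.38 at E15.5, 3.08 and 1.51 in the E18.5 pair, 0.825 at P14, then 25.9 and 37.2 in the P56 pair, or 55, 15, 8, 4, 3, 91 and 115 reads. It was lowest from E18.5 to P14 and highest in both P56 libraries. Its rise from E18.5 to P56 was 13.8-fold (log2 change 3.33, SE 0.424, adjusted p = 0.00313), or 20.9-fold without the first E18.5 library, and against the 3 reads of P14 it was 38.3-fold (95% counting interval 12.9 to 187, adjusted p = 0.0172). Its fall at E18.5 from the early stages was 4.01-fold (adjusted p = 0.0304), or 6.1-fold without the first E18.5 library. It was not called by DESeq2 (0.107) or without the E13.5 library (2.35-fold, 0.274). Acss2, which makes acetyl-CoA from acetate, lay between 0 and 4.21 in all libraries.

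The desaturases carried most of the reads of the set, and the 2 main stearoyl-CoA desaturases, which put the first double bond into saturated acyl chains, parted after E18.5. Scd1 stood at 17.96 at E13.5 and 34.8 at E15.5, 1577 and 1770 in the E18.5 pair, 3296 at P14, then 7812 and 8761 in the P56 pair. Every stage lay above the one before without overlap. Its 63.4-fold rise to E18.5 (log2 change 6.00, SE 0.172, adjusted p = 2.96e-06) was the largest of the 39 genes in that comparison. P56 exceeded E18.5 4.95-fold (log2 change 2.31, adjusted p = 0.000301) and P14 2.51-fold (adjusted p = 0.0437; by edgeR without the second P56 library, 0.0546). The 1.97-fold difference between P14 and E18.5 had adjusted p = 0.0581 by limma and 0.0391 by edgeR.

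Scd2 stood at 2711 at E13.5 and 3702 at E15.5, 8787 and 9545 in the E18.5 pair, 4834 at P14, then 4034 and 4457 in the P56 pair. It peaked at E18.5, where both libraries lay above all others. It rose 2.86-fold to E18.5 (log2 change 1.53, SE 0.157, adjusted p = 0.000623) and was 2.16-fold lower at P56 than at E18.5 (log2 change -1.11, adjusted p = 0.00472), the only member of the 39 called lower in that comparison by limma, where edgeR also called Fads3 and Elovl5. The 1.9-fold lower value at P14 had adjusted p = 0.053 by limma and 0.0312 by edgeR. Scd1 and Scd2 lie on chromosome 19 (Scd1 at 44394455 to 44407879 on the minus strand, Scd2 at 44293674 to 44306864 on the plus strand, mm10). In the last 500 bases of their transcripts, where the tags come from, they shared 0 of 476 runs of 25 bases with each other.

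As a share of the reads of both genes, Scd1 made up 0.658% at E13.5 (95% exact binomial interval 0.519 to 0.823%) and 0.932% at E15.5. At E18.5 the share was 15.2% (14.8 to 15.7%) and 15.6% (15.2 to 16.1%). At P14 it was 40.5% (40.0 to 41.1%), and at P56 it was 65.9% and 66.3%. Replicates differed by less than 1 percentage point, and E18.5, P14 and P56 each lay far above the stage before. The intervals of E13.5 and E15.5 (0.756 to 1.14%) overlapped. The sum of both values was 2729 at E13.5 and 3736 at E15.5, 10364 and 11315 in the E18.5 pair, 8129 at P14, then 11846 and 13217 in the P56 pair, so the summed level at P14 lay below both E18.5 libraries and the P56 libraries lay above them.

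**Figure D3:**
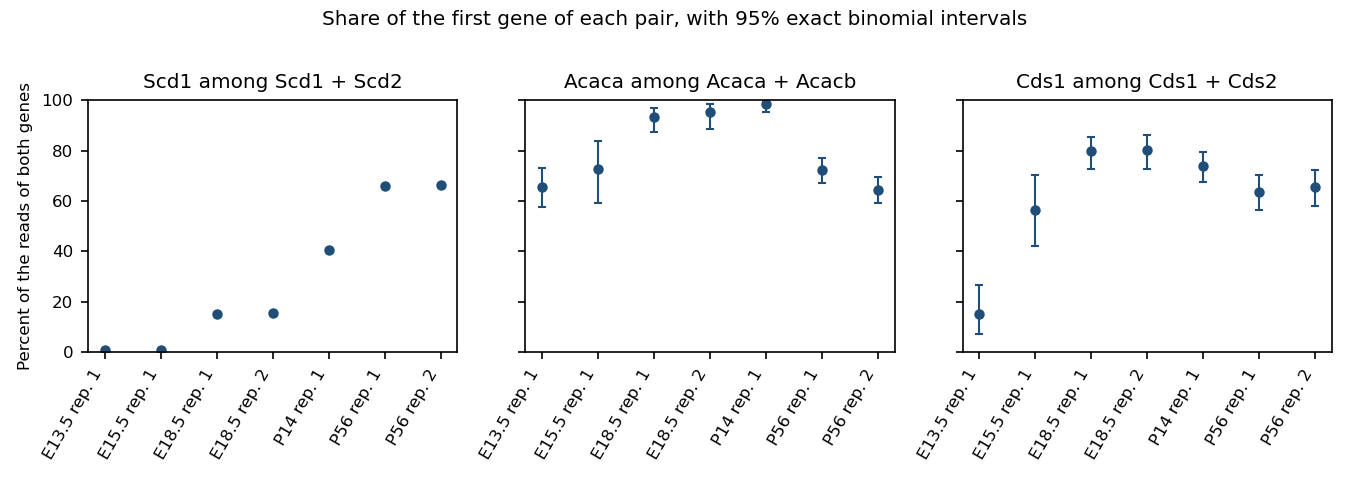
Each panel gives, per library on the horizontal axis, the percent of the reads of a gene pair that came from the first gene, with 95% exact binomial intervals that cover counting error only and for Scd1 are smaller than the symbols. Scd1 climbs from 0.658% of the pair at E13.5 to 66.3% in the second P56 library, Acaca peaks at 98.4% of its pair at P14, and Cds1 is lowest at E13.5, at 15%.

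Fads1 encodes a front-end desaturase in the path to arachidonate. It stood at 83.9 at E13.5 and 37.7 at E15.5, 43.9 and 72.0 in the E18.5 pair, 134 at P14, then 195 and 211 in the P56 pair. The early and E18.5 libraries overlapped, and P14 and P56 lay above all of them. It rose 3.5-fold from E18.5 to P56 (log2 change 1.83, adjusted p = 0.00549). Fads2, the other enzyme of that path, was at 6.38 or below in every library, and its lower call at E18.5 (adjusted p = 0.0473) was not made by edgeR (0.07) or DESeq2 (0.302), nor by limma without E13.5 (0.227) or without E15.5 (0.0532). Fads3, a relative of both, had values of 1.18 (E13.5), 12.6 (E15.5), then 28.5 and 42.6 (E18.5), and lay between 13.4 and 19.8 later. Its rise to E18.5 was 5.17-fold (adjusted p = 0.0014), or 2.83-fold against E15.5 alone (0.0615) and 30.1-fold against E13.5 alone.

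Among the elongases, which lengthen acyl-CoA chains, Elovl1 rose to E18.5 and further to P14 and P56, Elovl5 rose to E18.5, and Elovl6 had 6 reads or fewer in each library from E18.5 on. Elovl1, which extends saturated and monounsaturated chains to very long ones, stood at 1.18 at E13.5 and 4.31 at E15.5, 16.6 and 23.7 in the E18.5 pair, 93.0 at P14, then 354 and 310 in the P56 pair. No stage overlapped the next. Elovl1 rose 7.34-fold to E18.5 (adjusted p = 0.000709; 4.68-fold against E15.5 alone and 17.1-fold against E13.5 alone), 4.62-fold from E18.5 to P14 (adjusted p = 0.0226) and 16.5-fold from E18.5 to P56 (log2 change 3.99, SE 0.276, adjusted p = 0.000239). The 3.57-fold step from P14 to P56 had adjusted p = 0.0779 by limma and 0.00693 by edgeR. Cdc20, a mitotic gene on the opposite strand at the 3′ end of Elovl1, ran the other way, at 12.8 and 20.8 in the early libraries and 0.825 to 1.99 from E18.5 on.

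Elovl5, an elongase of polyunsaturated chains, stood at 21.5 at E13.5 and 31.2 at E15.5, 101 and 111 in the E18.5 pair, 83.4 at P14, then 56.1 and 68.0 in the P56 pair. Its 4.02-fold rise to E18.5 was called (adjusted p = 0.00094); the P56 libraries lay below those of E18.5, 1.71-fold lower, with adjusted p = 0.065 by limma and 0.0339 by edgeR. Elovl6, which takes palmitate to stearate, had 171 reads (40.4 units) at E13.5 and 12 at E15.5, but 0 in both E18.5 libraries, 1 at P14 and 6 and 0 at P56. Against a floor of 3 reads over both E18.5 libraries it was at least 39.1-fold lower at E18.5 than in the early stages (adjusted p = 0.00373). Without the E15.5 library that bound was 70.7-fold. The call was not made by DESeq2 (0.129) or without the E13.5 library, where the bound was 7.54-fold (0.0871). Elovl7 lay between 14.2 and 37.6 with overlapping stages.

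**Figure D4:**
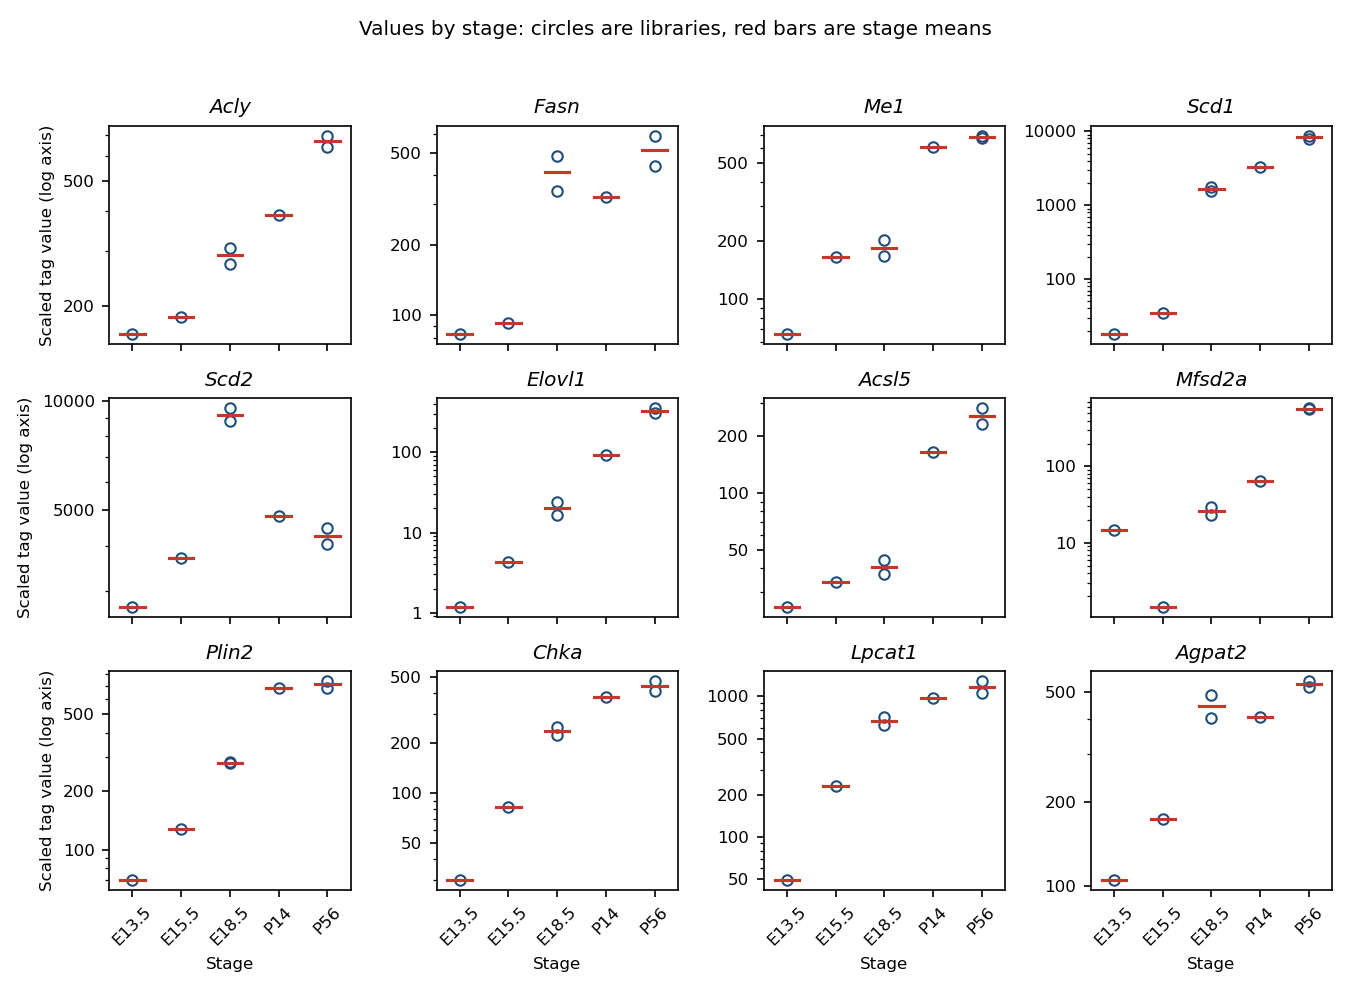
Each panel shows 1 gene, with the scaled tag value on a log axis against stage, circles for libraries and a red bar for the mean of the stage. Scd1, Elovl1 and Lpcat1 climb over all 5 stages, Me1 and Acsl5 step up between E18.5 and P14, Mfsd2a between P14 and P56, and Scd2 peaks at E18.5.

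Of the 5 genes of fatty acid activation and carriage, Acsl4, Fabp5 and Mfsd2a were called higher at E18.5 than in the early stages, and Acsl4, Acsl5 and Mfsd2a at P56 than at E18.5. Acsl5, an acyl-CoA synthetase, stood at 25.05 at E13.5 and 34.1 at E15.5, 44.3 and 37.3 in the E18.5 pair, 166 at P14, then 230 and 280 in the P56 pair. The 4 fetal libraries lay far below the 3 postnatal ones. The rise from E18.5 was 4.07-fold to P14 (adjusted p = 0.0156) and 6.26-fold to P56 (log2 change 2.62, SE 0.224, adjusted p = 0.000554), while E18.5 and the early stages differed 1.38-fold (adjusted p = 0.162). Acsl4, which prefers arachidonate, was at 3.78 and 6.46 in the early libraries, 16.9 and 17.0 in the E18.5 pair, 39.9 at P14, then 66.9 and 60.2 in the P56 pair. It rose 3.31-fold to E18.5 (adjusted p = 0.00502; by edgeR without the E13.5 library, 0.0517) and 3.75-fold from there to P56 (0.00521). Acsl3 was at 32.1 at E13.5 and between 9.90 and 13.6 in all other libraries (adjusted p = 0.0707 for E18.5 against the early stages).

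Mfsd2a, the carrier that takes up lysophosphatidylcholine bearing docosahexaenoate, stood at 14.7 at E13.5 and 1.44 at E15.5, 23.1 and 29.8 in the E18.5 pair, 64.1 at P14, then 570 and 580 in the P56 pair. The P56 libraries stood apart from all others, and E15.5 was the lowest. It rose 8.97-fold from P14 to P56 (adjusted p = 0.00582) and 21.7-fold from E18.5 to P56 (log2 change 4.40, SE 0.24, adjusted p = 0.000109), the largest rise of the 39 genes between those stages. Its 3.29-fold rise at E18.5 (adjusted p = 0.000894) depended on E15.5, with 1.8-fold against E13.5 alone (0.0631) and 18.4-fold against E15.5 alone. Fabp5, a fatty acid binding protein, was at 31.2 and 33.0 in the early libraries, 164 and 86.7 in the E18.5 pair, 146 at P14, then 168 and 193 in the P56 pair. It rose 3.9-fold to E18.5 (adjusted p = 0.00488) and was not called afterwards, with the first E18.5 library well above the second.

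In the first steps of glycerolipid assembly, Gpam, Agpat2 and Lpin2 were called higher at E18.5 than in the early stages, and none of the 3 was called between P56 and E18.5 by limma. Agpat2, which adds the second acyl chain, stood at 105 at E13.5 and 175 at E15.5, 404 and 489 in the E18.5 pair, 407 at P14, then 520 and 547 in the P56 pair. Its rise to E18.5 was 3.19-fold (adjusted p = 0.000805), and P56 exceeded E18.5 1.19-fold (0.406). Gpam, the mitochondrial acyltransferase that adds the first chain, was at 1.89 and 11.5 early and between 48.9 and 59.2 in all 5 later libraries. It rose 8.08-fold (log2 change 3.19, adjusted p = 0.000236), or 4.71-fold against E15.5 alone and 28.6-fold against E13.5 alone. Lpin2, a phosphatidate phosphatase that yields diacylglycerol, rose 2.84-fold (adjusted p = 0.00442), from 16.5 and 10.8 to 36.6 and 41.1, and stood at 67.2 and 75.1 at P56, 1.83-fold above E18.5 (0.0564). Lpin1, of the same family, lay between 1.08 and 9.07.

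In the storage group, Plin2, which coats lipid droplets, stood at 69.9 at E13.5 and 128 at E15.5, 279 and 283 in the E18.5 pair, 683 at P14, then 738 and 682 in the P56 pair. It climbed in 2 steps, to E18.5 and to P14, with no overlap at either, and P14 lay beside the lower P56 library. The steps were 2.84-fold (adjusted p = 0.000854) and 2.43-fold (adjusted p = 0.0273), and P56 exceeded P14 1.04-fold (0.981). Dgat1 and Dgat2, the enzymes that complete triglyceride, were low, between 0.473 and 6.41 in all libraries, and neither was called.

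Of the 5 genes of phosphatidylcholine synthesis, Chka, Pcyt1a and Chpt1, which encode a choline kinase, the rate-limiting CTP transferase of the path and a cholinephosphotransferase, were called higher at E18.5 than in the early stages. Chka stood at 30.01 at E13.5 and 82.9 at E15.5, 225 and 251 in the E18.5 pair, 380 at P14, then 473 and 410 in the P56 pair. Each stage was above the one before. It rose 4.21-fold to E18.5 (log2 change 2.22, SE 0.19, adjusted p = 0.0003; 7.92-fold against E13.5 alone) and 1.86-fold from E18.5 to P56 (adjusted p = 0.0223; 0.139 by edgeR without the first P56 library).

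Pcyt1a was at 5.20 at E13.5 and 19.4 at E15.5, and then between 20.7 and 30.8. Its 2.45-fold rise to E18.5 (adjusted p = 0.00767) was larger against E13.5 than against E15.5: the ratio was 5.79 against E13.5 alone and 1.55 against E15.5 alone, where the adjusted p was 0.268. Chpt1 was at 7.56 and 7.89 early, 31.2 and 35.8 in the E18.5 pair, 36.3 at P14, then 20.5 and 22.3 in the P56 pair, with a 4.33-fold rise to E18.5 (adjusted p = 0.00211) and an uncalled difference of 1.56-fold between P56 and E18.5 (0.186). Cept1, which makes phosphatidylcholine and phosphatidylethanolamine, ran from 5.20 to 22.02 (adjusted p = 0.0791 for E18.5 against the early stages, 0.045 by edgeR). Pemt, which methylates phosphatidylethanolamine, was at 4.96 at E13.5 and 0 to 3.23 elsewhere.

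Cds1 and Pgs1 lie on the way to phosphatidylglycerol, the acidic lipid of surfactant, and to cardiolipin: the first makes CDP-diacylglycerol and the second phosphatidylglycerol phosphate. Cds1 was at 2.13 at E13.5 and 10.8 at E15.5, 51.6 and 44.5 in the E18.5 pair, 43.5 at P14, then 35.3 and 37.6 in the P56 pair. It was high from E18.5 on. It rose 7.45-fold (log2 change 3.01, adjusted p = 0.000316; 4.46-fold against E15.5 alone and 22.6-fold against E13.5 alone). Its relative Cds2 lay between 8.25 and 20.2 and was not called in any comparison. Cds1 made up 15% of the reads of the pair at E13.5 (7.1 to 26.6%), 56.6% at E15.5, 79.8% and 80.3% in the E18.5 pair, 73.8% at P14, then 63.6% and 65.5% in the P56 pair. Pgs1 had 1 read at E13.5, stood at 4.66 at E15.5, and lay between 12.4 and 21.7 later. It rose 5.76-fold (adjusted p = 0.00253), or 3.02-fold against E15.5 alone (0.0669) and 59.7-fold against the 1 read of E13.5. Ptdss1, a phosphatidylserine synthase, lay between 4.96 and 10.7 and was not called.

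Lpcat1 encodes the acyltransferase of type 2 cells that puts palmitate back onto lysophosphatidylcholine. It stood at 49.6 at E13.5 and 232 at E15.5, 629 and 709 in the E18.5 pair, 968 at P14, then 1055 and 1284 in the P56 pair, each stage above the one before. The rise to E18.5 was 4.75-fold (log2 change 2.62, SE 0.187, adjusted p = 0.000154), which was 13.5-fold against E13.5 alone and 2.88-fold against E15.5 alone. P56 exceeded E18.5 1.75-fold (adjusted p = 0.0305), and by edgeR that call was lost without either P56 library (0.0539 without the first, 0.206 without the second). Lpcat3, which favours polyunsaturated chains, was at 3.54 and 12.9 early, 18.5 and 35.0 at E18.5 and 16.2 to 25.3 later; its 3.25-fold rise (adjusted p = 0.0168) was 2.07-fold against E15.5 alone (0.251) and 7.55-fold against E13.5 alone. Srebf1, which encodes the SREBP-1 factors that switch on fatty acid synthesis genes, stood at 9.45 at E13.5 and 12.2 at E15.5, 24.6 and 26.0 in the E18.5 pair, 24.2 at P14, then 39.6 and 34.3 in the P56 pair. Its 2.34-fold rise to E18.5 was called by limma (adjusted p = 0.0163; 0.0892 without the E13.5 library) and not by DESeq2 (0.113), and P56 exceeded E18.5 1.46-fold (0.245).

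Between E13.5 and E15.5, with 1 library each and no test, 13 of the 39 genes were at least 2-fold higher and 6 at least 2-fold lower on the log2(value + 1) scale, where 13.4% and 8.18% of all genes tested were. Lpcat1 was 4.68-fold higher at E15.5 (95% counting interval 3.998 to 5.49), Chka 2.76-fold (2.21 to 3.46), Me1 2.5-fold (2.15 to 2.91) and Pcyt1a 3.73-fold (2.23 to 6.43). Those intervals cover counting error only. Gpam, Cds1, Fads3, Lpcat3, Pgs1, Dgat2, Elovl1, Dgat1 and Acss2 were the others on the higher side, with 36 reads or fewer in each of these libraries. On the lower side, Elovl6 went from 171 reads to 12, Mfsd2a had 62 and 4, and Fads1 (2.23-fold lower), Acsl3 (2.36-fold), Acacb (2.41-fold) and Lpin1 made up the rest. The higher side thus held genes of several roles, with Me1 and Acss2 of palmitate synthesis beside Chka and Pcyt1a of phosphatidylcholine synthesis. Fasn, Acly and Scd2 differed by under 2-fold, and so did Chpt1 (1.04-fold) and Cept1 (1.24-fold) of phosphatidylcholine synthesis.

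By role, every group took a larger share of the reads at P56 than at E13.5. The desaturases took 0.306% at E13.5, 1.04% and 1.08% in the E18.5 pair, 0.789% at P14, then 1.18% and 1.29% in the P56 pair. Palmitate synthesis took 0.0379% at E13.5, 0.0861% and 0.0938% at E18.5 and 0.189% and 0.193% at P56. Activation and carriage, at 0.0257% and 0.0172% at E18.5, reached 0.0405% at P14 and 0.103% and 0.108% at P56, when Mfsd2a made up 54.3% and 51.4% of it. The CDP-diacylglycerol and phosphatidylserine group took 0.00848% and 0.00705% at E18.5 and 0.008% and 0.00858% at P56.

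**Figure D5:**
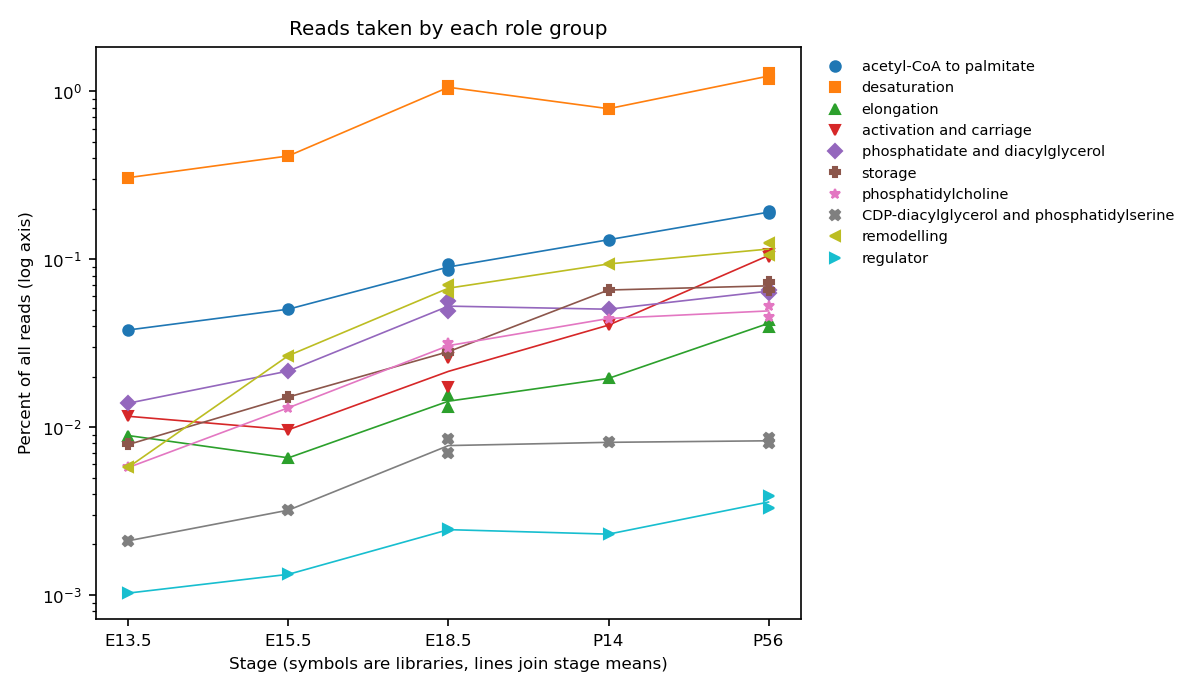
The percent of all reads taken by each of the 10 role groups (log axis) is plotted against stage, with a symbol per library and lines joining stage means. The desaturases lie highest throughout, at 0.306% at E13.5 and 1.29% in the second P56 library, and the activation and carriage group climbs most steeply from P14, at 0.0405%, to P56.

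Further genes of the same pathways, taken from lists that do not hold the 39, gave the following counts by limma. Of 13 tested genes of fatty acid synthesis, elongation and NADPH supply, 5 were called higher at E18.5 than in the early stages, and 5 at P56 than at E18.5, and they were the same genes in both: Mid1ip1, which promotes polymerisation of acetyl-CoA carboxylase, the desaturases Scd3 and Scd4, the dehydratase Hacd3 and the NADPH-yielding Pgd, the last named after its values were seen. These were 38.5% of the list in each comparison, against the 15.8% and 8.07% of all genes called higher. In their last 500 bases Scd4 shared 216 and Scd3 32 of 476 runs of 25 bases with other genes, so the values of Scd4 in particular are uncertain. Mid1ip1 stood at 540 at E13.5 and 1168 at E15.5, 4365 and 5291 in the E18.5 pair, 7379 at P14, then 10387 and 8684 in the P56 pair, a 5.65-fold rise to E18.5 (8.94-fold against E13.5 alone; adjusted p = 0.00014) and a 1.98-fold rise from there to P56 (0.0127). Of 26 tested genes of glycerolipid and phospholipid synthesis, 3 were called higher (Agpat3, Cdipt and Pcyt2) and 3 lower (Ept1, Agpat4 and Pcyt1b) at E18.5, and 2 higher (Etnk1 and Pisd) and 2 lower (Ppap2a and Agpat3) at P56. Those shares, 11.5% in each direction at E18.5 and 7.69% at P56, lay near or below the shares of all genes tested. Agpat3, an acyltransferase like Agpat2, rose 4.33-fold to E18.5 and was 2.77-fold lower at P56 (adjusted p = 0.0078), at 119 and 147 against 43.8 and 52.5.

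Of 20 regulators tested, 9 (45%, against 15.8% of all genes) were called higher at E18.5, Cebpb, Cebpa, Insig1 and Prkaa2 with the smallest p. Cebpa, a factor of lipid-making epithelia and fat, rose 5.3-fold (3.2-fold against E15.5 alone and 15.4-fold against E13.5 alone; adjusted p = 0.000591), from 2.60 and 12.6 to 36.6 and 43.7. Insig1, which holds SREBP in the endoplasmic reticulum, stood at 73.96 and 110 early, 304 and 276 in the E18.5 pair, 104 at P14, then 206 and 211 in the P56 pair, and was 2.8-fold lower at P14 than at E18.5 (adjusted p = 0.0221), as was Cebpb, 2.48-fold (0.0334). Nr1h3, the liver X receptor gene that can induce Srebf1, rose 5.24-fold to E18.5 (2.99-fold against E15.5 alone and 20.8-fold against E13.5 alone) and 3.44-fold from there to P56 (adjusted p = 0.00896), and Cebpb was called lower at P56.

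Among genes of fatty acid uptake, Cd36, Vldlr and Lpl were called higher at E18.5, and Cd36 and Dbi at P56. Cd36, a fatty acid translocase, stood at 0.473 at E13.5 and 9.33 at E15.5, 76.6 and 66.3 in the E18.5 pair, 229 at P14, then 405 and 354 in the P56 pair, and rose 14.6-fold to E18.5 (7.66-fold against E15.5 alone; E13.5 had 2 reads), 3.2-fold to P14 (adjusted p = 0.0269) and 5.31-fold from E18.5 to P56 (0.00084). Of 7 tested genes of lipid droplets and lipolysis, 5 (71.4%, against 15.8% of all genes) were called higher at E18.5. At P56 2 (28.6%, against 8.07%) were called higher (Pnpla2 and Mgll) and 2 (28.6%, against 6.15%) lower (Lipa and G0s2). G0s2, 1 of the 5, was 1.16-fold higher at E18.5 than the mean of the early stages and 1.55-fold lower than at E15.5 alone. Pnpla2, the adipose triglyceride lipase, rose 3.48-fold from E18.5 to P56 (adjusted p = 0.00232), and its inhibitor G0s2 was 1.75-fold lower (0.0407). Of 19 tested genes of fatty acid oxidation, 6 (31.6%, against 15.8% of all genes) were called higher at E18.5, Acaa2, Acaa1a and Cpt1a among them, and 0 were called in either direction in the later comparisons, which called 8.07%, 1.87% and 0.123% of all genes higher. For P56 against E18.5 the unadjusted counts there were 2 higher and 1 lower, and edgeR called 0 and 1. From E18.5 to P14 the unadjusted counts were 3 and 0 and from P14 to P56 0 and 1, with 0 by edgeR in both. Of 15 tested genes of lamellar bodies and surfactant handling, 10 (66.7%) were called higher and 1 (6.67%) lower at E18.5, against 15.8% and 13.4% of all genes. At P56 9 (60%) were called higher and 2 (13.3%) lower, against 8.07% and 6.15%. This list shares Sftpb, Sftpc, Abca3, Lamp3 and Slc34a2 with the alveolar type 2 markers above, so it is not separate from them.

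Sequence shared between genes was looked for at the 3′ ends. In the last 500 bases of their transcripts, 36 of the 39 genes shared no run of 25 bases with another gene, and Fasn, Elovl7 and Plin2 shared 1, 5 and 21 of 476. For 10 of the 39 a gene on the opposite strand reaches the 3′ end, and the sources used here do not say whether counting used strand. Emg1, opposite Lpcat3, stood at 377 to 1568, and Rai1, opposite Srebf1, at 239 to 465, above the values of both genes in all 7 libraries. Dennd2d, opposite Cept1, stood at 0.473 to 37.3 and above Cept1 in 5 of the 7, so the values of Lpcat3, Srebf1 and Cept1 are uncertain. Zdhhc6, opposite Acsl5, stood at 14.8 to 25.03, and Egfl7, opposite Agpat2, at 1.51 to 13.0. Opposite Pcyt1a, Chpt1 and Pgs1 the other gene had at most 7 reads in any library, and for Ptdss1 no opposite-strand value was matched by symbol.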

How the data were processed

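Each library's deposited values are a signal per gene: tag counts that the authors divided by 1 factor per library. This was read from the values, 100% of which came back as whole reads within 0.01 reads. Bowtie2 2.2.5, R 3.4.0 and mm10 were used, per the submitters' processing notes; the counting program, annotation, strand setting and scaling are not given in the sources used here. All lists, the 39 genes included, were chosen with earlier results of these data known. Lists were taken by symbol from 7 pathway lists and 8 marker lists.

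Genes passing edgeR's filterByExpr by stage on the recovered reads (12964 of 21121) were tested with limma-trend (robust) on log2(value + 1), fitted to all 7 libraries with stage as the only term, with Benjamini-Hochberg adjustment over all genes tested and calls at 0.05. The pseudocount of 1 pulls log2 changes of low genes towards 0; ratios are of mean values and carry no pseudocount. Median replicate differences were 0.32 (E18.5) and 0.26 (P56) on the log2 scale. The edgeR quasi-likelihood test on the recovered reads called 2097 genes at P56 against E18.5 (limma 1843), 3994 at E18.5 against the early stages (3779), 686 at P14 against E18.5 (403) and 267 at P56 against P14 (106). Methods were tested on simulated data first. Values in every library were planned for called members without overlap whose higher stage had a mean of 100 or more, and for up to 4 called genes of each further list; other members given library by library were chosen after their values were seen. Alternatives were edgeR, DESeq2, other scalings, filters and pseudocounts, non-robust variance, a replicate block and leaving out libraries. Club, ciliated, endothelial and erythroid markers took at most 0.0466%, 0.222%, 0.00148% and 0.00253% of the reads. Tools were limma 3.58.1, DESeq2 1.42.0 and edgeR 4.0.16 under R 4.3.3, and Python 3.11.15. Transcript ends came from GENCODE vM21 and promoters from RefSeq, both on GRCm38.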

Additional observations from a re-analysis of the deposited data

How the results depend on the processing

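No member called in a comparison by limma changed direction there under any alternative that tested it. Members that were not called were not checked for direction. At P56 against E18.5, where limma called 12 members higher and 1 lower, 6 and 0 were called with no filter on low values, and 3 were lower by edgeR or with a mean value of at least 10 and 2 with TMM rescaling. At E18.5 against the early stages (24 and 3), the lower count was 0 by DESeq2 and 1 with no filter, with a mean of at least 10, without robust variance and with the replicate block. At P14 against E18.5 (4 and 0), 2 were higher with no filter, 7 with a mean of at least 10 and 0 without robust variance, and 1 was lower by edgeR, DESeq2, TMM rescaling, scaling to total reads and a mean of at least 10. At P56 against P14 (3 and 0), 1 was higher with no filter and 0 without robust variance. At E15.5 against E13.5 a pseudocount of 5 gave 8 higher and 3 lower in place of 13 and 6. Without the 10 most abundant genes of each library, the share of all members was 0.502% at E13.5 and 0.692% at E15.5, 0.57% and 0.619% in the E18.5 pair, 1.47% at P14, then 2.14% and 2.27% in the P56 pair. Scd2 was left out in this way at E18.5 and kept at the other stages, so the E18.5 shares are not comparable with the others.

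Without 1 library, limma called 0 to 22 members higher and 0 to 3 lower at E18.5 against the early stages (17 to 24 and 0 to 3 by edgeR), and 0 higher and 0 lower in each other comparison, at 1 residual degree of freedom. By edgeR the ranges were 10 to 14 higher and 1 to 3 lower at P56 against E18.5, 6 to 7 and 1 at P14 against E18.5, and 3 and 0 at P56 against P14. E18.5 and P56 share replicate numbers that the labels do not tie to a litter or day. Deviations of same-numbered libraries had r = -0.037 over 6807 genes, so no strong shared deviation was seen. Such a correlation cannot settle whether the numbers pair the libraries, which is not known. With the replicate block 19 members were higher and 1 lower at E18.5, 10 and 1 at P56 against E18.5, and 0 at P14 against E18.5 and at P56 against P14. Genes with few reads, such as Acss2, Fads2, Dgat2 and Pemt, could not show moderate differences at this depth.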

Other observations

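Some lipid genes outside the 39, singled out after their values were seen, are described here. Lipa, the lysosomal acid lipase, stood at 39.9 at E13.5 and 35.9 at E15.5, 100 and 132 in the E18.5 pair, 49.0 at P14, then 3.98 and 1.30 in the P56 pair, and was 44.1-fold lower at P56 than at E18.5 (limma adjusted p = 0.000366), with 14 and 4 reads at P56; the ratio was 89.8 without the first P56 library and 29.2 without the second. Agpat4, an acyltransferase for lysophosphatidate, stood at 76.3, 49.2, 27.7, 13.9, 146, 25.04 and 22.3 in the same order, so the P14 library was above all others. It was 7.03-fold higher at P14 than at E18.5 (adjusted p = 0.0202) and 6.18-fold lower at P56 than at P14 (0.0478). The macrophage marker Csf1r also stood highest in that library, at 22.3 units against 2.27 or less elsewhere, and its part in the P14 values was not tested. Pla2g1b, a secreted phospholipase, stood at 80.1 and 94.7 early, 299 and 179 in the E18.5 pair, 2236 at P14, then 1456 and 2129 in the P56 pair, a 9.35-fold rise from E18.5 to P14 (adjusted p = 0.00686).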
